A study of Mus musculus with 2 samples.

Results

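Of 8735 distinct Nanog peaks on chromosomes 1 to 19 and X, 258 were centred in exons of protein-coding genes away from promoters (2.95%, exact 95% interval 2.61 to 3.33), and 156 of these lay wholly inside exons. These exonic peaks were the listed intervals whose middle base fell in an exon of a protein-coding gene and lay over 2.5 kb from the transcription start site (TSS) of every protein-coding gene, the TSS being the 5′ end of the gene in the GENCODE vM21 annotation. The cells were Bruce-4, a line of mouse embryonic stem cells (ESCs) kept in medium with serum and LIF and fixed with formaldehyde before Nanog-bound DNA was pulled down and sequenced (ChIP-seq). An anti-Nanog sample and an input sample without antibody were made from the same line, 1 of each with no replicate, and the peak list belongs to the former. It gives positions on mm10 and no strength or summit, so the depth behind a peak is unknown. Intervals given below therefore cover counting error over peaks of 1 library only, and treat peaks as independent.

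Nanog is a homeodomain transcription factor that, together with Oct4 and Sox2, maintains the pluripotent state of ESCs, mostly from enhancers in introns and between genes. A peak over an exon marks DNA and not RNA: it can lie at an alternative promoter inside the gene, at an enhancer that overlaps an exon, or next to an exon shorter than the peak. Coding exons and untranslated regions (UTRs) also differ from introns in base composition and in the constraint on their sequence, both of which bear on which motifs they can hold.

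The middle base fell in a coding exon at 84 of the 258 peaks (32.6%), in a 5′ UTR at 20 (7.75%) and in a 3′ UTR at 90 (34.9%). The remaining 64 (24.8%) lay in exons of noncoding transcripts of protein-coding genes, 52 of them transcripts annotated as retained introns and 12 as processed transcripts. These are called other exons below. How much of that sequence is intron in the coding transcripts of the same gene was not measured. The peaks lay in 256 genes, of which 254 held 1 exonic peak each. The exonic peak nearest to the distance limit lay 2514 bp from a TSS and the nearest one left out lay 2309 bp from it. A further 149 peaks were centred in exons within 2.5 kb of a protein-coding TSS and are not described here.

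The sequences that carry the motif results are shown first, each read from GRCm38 (the assembly of mm10) 5′ to 3′ on the stated strand, with the motif in capitals. The Nanog extended motif GCCATTAA was present in 2 exonic peaks, and both copies lay in exons.
Fcrl5, copy in 3' UTR sequence, chr3:87467488-87467517, plus strand: taagcgcatttGCCATTAAacatttgggct
Etv5, copy in coding sequence, chr16:22411869-22411898, minus strand: tctgggttcaaGCCATTAAccccgcccgcc
The Oct4-Sox2 composite motif, on which both factors sit side by side, was allowed up to 2 mismatches and was found in 12 exonic peaks. The widest 3 of these are shown because in 2 of them the composite lay in the intron beside the coding exon, and in the other in the 5′ UTR itself.
Evi5l, copy in intronic sequence, chr8:4192962-4192991, minus strand: cagccaacATTTGTTGTGCAAATgaattga
Vps13c, copy in intronic sequence, chr9:67955792-67955821, plus strand: aggtaccCTTTGATATGGAAATgctgtttt
Set, copy in 5' UTR sequence, chr2:30062016-30062045, plus strand: tgtgtccCACTGTCATGTAAATatcccccg
The octamer ATGCAAAT, bound by Oct4 and other POU factors, is shown for the widest 3 of its 14 peaks.
Gprc6a, copy in coding sequence, chr10:51615330-51615359, plus strand: cctccccttgaATGCAAATacaaagcaaat
Ildr1, copy in intronic sequence, chr16:36708163-36708192, minus strand: taataaaagccATGCAAATgaacaaaagct
Sgce, copy in other exon sequence, chr6:4738904-4738933, plus strand: ctctttttgaaATGCAAATctggtcttgtc
The Esrrb motif TCAAGGTCA occurred in 10 exonic peaks, and the Klf motif (GCCACACCC, GCCACGCCC, GCCCCACCC or GCCCCGCCC) in 29. The widest 3 of each are shown, since in exonic peaks these motifs had the highest ratios of density at the peak middle to density farther out.
Rasa4, copy in intronic sequence, chr5:136102191-136102220, minus strand: ccaacaaacggTCAAGGTCAgcacttgtga
Kcnab3, copy in coding sequence, chr11:69331342-69331371, plus strand: aaagccactgTCAAGGTCAgacttggcggc
Klhl12, copy in coding sequence, chr1:134458565-134458594, minus strand: ctgctccactcTCAAGGTCAcatcacagag
Igf2bp1, copy in intronic sequence, chr11:95981339-95981368, minus strand: cctttttgcttGCCCCACCCcacagcttga
Fasn, copy in intergenic sequence, chr11:120805726-120805755, plus strand: ctgcctggcaGCCCCACCCtgcttcttata
Igf2, copy in coding sequence, chr7:142655847-142655876, plus strand: aggcccccaaGCCACACCCctaatcccagg
The Myc E-box CACGTG is shown because its share in exonic peaks exceeded that in intronic ones with an interval apart from 1, which was not so at like GC content (below). The 3 shown held it in coding sequence.
Mast1, copy in coding sequence, chr8:84915725-84915754, plus strand: gggctcaccattCACGTGagtgatgaggtc
Rasa4, copy in coding sequence, chr5:136102334-136102363, plus strand: ccgctcggttcgCACGTGcccagccatcat
Crybg2, copy in coding sequence, chr4:134081840-134081869, plus strand: acgcaagccatcCACGTGctcagcggcgtg

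The first comparison asked how densely Nanog peaks occupied exons for the amount of sequence that exons offer over 2.5 kb from a TSS. Coding exons held 2.80 peak middles per Mb and 3′ UTRs 2.91 per Mb, both below the 3.86 per Mb of introns. The ratio to introns was 0.725 (95% interval 0.577 to 0.900) for coding exons and 0.753 (0.604 to 0.928) for 3′ UTRs, by an exact conditional interval for 2 rates. Distal 5′ UTRs stood apart, with 10.96 peaks per Mb over 1.83 Mb and a ratio of 2.84 (1.73 to 4.39). Other exons had the density of introns (3.86 per Mb, ratio 0.999, 0.768 to 1.28). Over all exon classes together the density was 3.25 per Mb, a ratio of 0.842 (0.739 to 0.955), and intergenic sequence held 2.85 per Mb. With soft-masked repeats left out, the ratio was 0.628 (0.497 to 0.783) for coding exons, 0.682 (0.537 to 0.856) for 3′ UTRs and 2.77 (1.69 to 4.29) for 5′ UTRs.

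**Figure D1:**
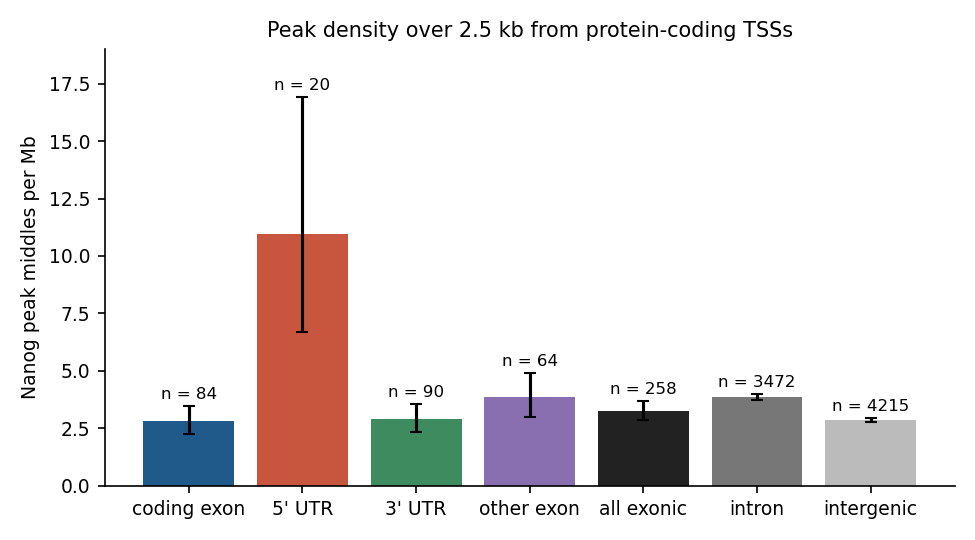
Nanog peak middles per Mb of non-N sequence over 2.5 kb from protein-coding TSSs (y axis) for each annotation class (x axis). Bars are the density, error bars the exact 95% Poisson interval, and n the number of peaks. The 5′ UTR bar stands at 10.96 per Mb, above all other classes, while coding exons (2.80) and 3′ UTRs (2.91) stand below introns (3.86).

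The distance to the nearest TSS was related to the ratio between exons and introns. Between 2.5 and 5 kb from a TSS, exons of all classes held 2.07 peaks per Mb against 5.42 in introns, a ratio of 0.383 (0.232 to 0.599). The ratio was 0.566 (0.403 to 0.776) at 5 to 10 kb and 0.830 (0.693 to 0.988) at 10 to 50 kb. Beyond 50 kb it was 1.04 (0.777 to 1.37), where exons held 3.19 and introns 3.07 peaks per Mb. Introns thus went from 5.42 to 3.07 peaks per Mb with distance, whereas exons held 2.07, 2.94, 3.71 and 3.19 per Mb in the same order. For coding exons alone the ratio went from 0.291 (0.106 to 0.643) in the nearest bin to 1.06 (0.653 to 1.62) in the farthest, with 6 and 21 peaks. For 3′ UTRs it was 0.334 (0.133 to 0.700) in the nearest bin and 0.746 (0.407 to 1.26) in the farthest, and these intervals overlap.

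Base composition also differed between exons and introns. Nanog peaks were denser in GC-rich sequence, with introns rising from 0.630 peaks per Mb where the surrounding window was under 40% GC to 9.04 per Mb where it was 55% or more. Exonic peaks had a median GC content of 50.8%, against 47.2% for the intronic and intergenic peaks over 2.5 kb from a TSS. By class the median was 53.9% in coding exons, 60.2% in 5′ UTRs, 48.0% in 3′ UTRs and 49.1% in other exons. When coding exons and introns of like GC content were set side by side, coding exons held between 0.332 and 0.489 of the intronic density in all 5 GC bins. The unstratified ratio of 0.725 was thus higher than that of any bin. The bin under 40% GC held a single coding peak, and its interval (0.00836 to 1.87) allows a ratio above 1. For 3′ UTRs the ratio in the bins ranged from 0.518 to 0.832. For 5′ UTRs the ratio was 2.76 (1.45 to 4.81) in the bin of 55% or more, which held 13 of the 20 peaks. The other GC bins held 0 to 4 peaks each, with ratios of 0.905 (0.0229 to 5.05) at 40 to 45%, 1.80 (0.490 to 4.62) at 45 to 50% and 0.768 (0.0928 to 2.78) at 50 to 55%, so no excess was detectable in them.

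**Figure D2:**
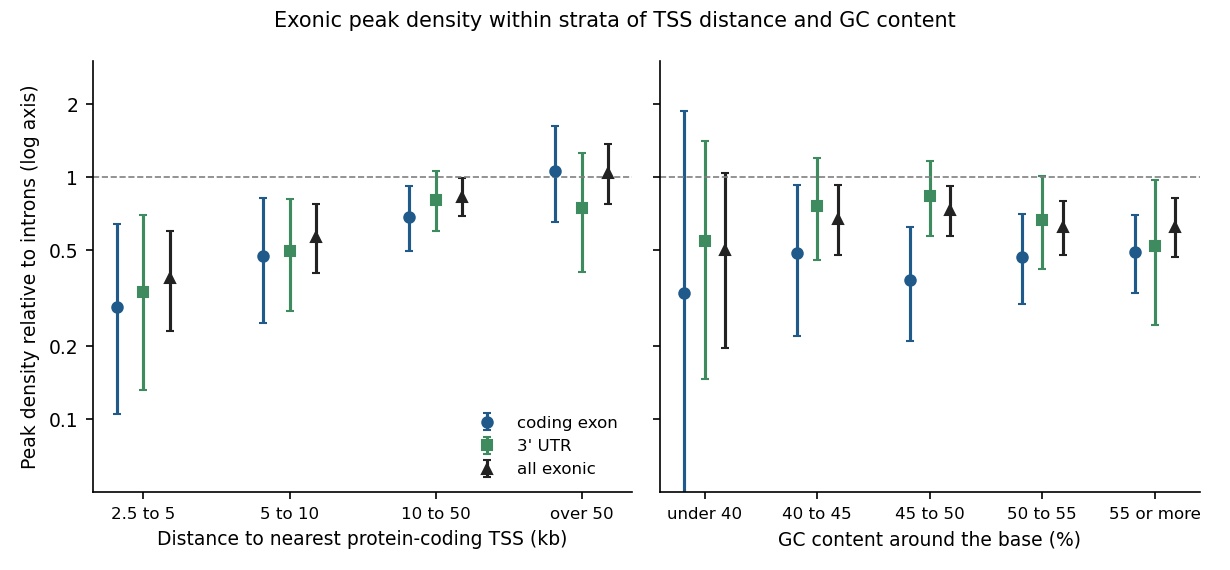
Peak density of coding exons, 3′ UTRs and all exon classes relative to introns (y axis, log scale, dashed line at 1) by distance to the nearest protein-coding TSS in kb (left) and by GC content in a window of the median peak width (right). Points are ratios and bars exact 95% intervals, with the lower bar for coding exons under 40% GC reaching 0.00836, off the axis. The ratio for all exons goes from 0.383 near TSSs to 1.04 beyond 50 kb, and coding exons stay at 0.489 or below in each GC bin.

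Coding-exon peaks were mostly wider than the exon beneath them. The exon had a median length of 186.5 bp, and at 61 of the 84 peaks it was shorter than the peak. A median of 60.5% of the bases of a coding peak were exonic, and 19 of 84 lay wholly inside exons. The peak width gives no more exact position, so at these peaks the bound site cannot be placed in the exon or in the intron beside it. A change of density with exon length was not detectable, since it was 3.32 per Mb (2.20 to 4.79) of coding sequence in exonic stretches of up to 150 bp and 2.30 per Mb (1.43 to 3.52) in stretches over 1 kb. The middle base lay at a median of 51.8% of the coding sequence (quartiles 37.3 and 79.3%), and 12 of the 84 were in the last coding exon.

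The widest coding-exon peak covered 630 bp of Evi5l (chr8:4192816-4193445), which encodes a Rab GTPase-activating protein, over its exon 9 of 98 bp, 26.6 kb from the TSS. The next was 590 bp wide in Pde1b, a calcium-dependent phosphodiesterase (chr15:103519745-103520334), over exon 3 of 114 bp. The third was 578 bp wide in Slc35f2, a solute carrier (chr9:53806403-53806980), over exon 4 of 160 bp. In these 3 peaks between 19.3 and 27.7% of the bases were exonic, so these wide peaks lay largely outside exons. By contrast the 398-bp peak in Nsd1 (chr13:55247278-55247675), which encodes a histone H3 lysine methyltransferase, lay wholly inside an exon of 2560 bp.

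The next comparison asked how many exonic peaks lay at the start of an annotated transcript that begins inside the gene, since the rule for choosing them used the 5′ end of the gene alone. A transcript TSS lay within 1 kb of 63 of the 258 exonic peaks (24.4%, 19.3 to 30.1), against 6.48% of 3472 intronic peaks, a difference of 17.9 percentage points (Newcombe 95% interval 13.0 to 23.6). Exonic sequence also lies nearer to transcript starts, however, with 17.7% of its bases within 1 kb of one against 3.90% of intronic bases. Per Mb, exonic peaks were 1.50 times as dense (1.11 to 2.00) within 1 kb of a transcript TSS as farther away, and intronic peaks 1.71 times (1.49 to 1.96). The intervals of these 2 ratios overlap, and a difference between exons and introns at internal transcript starts was not detectable. Within 1 kb of a transcript TSS exons held 0.698 (0.519 to 0.927) of the intronic density, and farther away 0.794 (0.684 to 0.918). For coding exons alone these ratios were 0.403 (0.227 to 0.669) and 0.760 (0.589 to 0.966).

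Most peaks of the 5′ UTR class lay near internal transcript starts, as does most of its sequence. Of its 20 peaks, 18 lay within 1 kb of a transcript TSS (90.0%, 68.3 to 98.8), at a median distance of 42.5 bp, and 16 lay in the first exon of their transcript. In this class 73.1% of the bases were within 1 kb of a transcript TSS. The ratio of near to far density was 3.31 (0.792 to 29.4), an interval that includes 1. Within 1 kb of a transcript TSS, 5′ UTRs held 2.10 times the intronic density (1.22 to 3.40). Farther away, with 2 peaks, they held 1.09 times (0.131 to 3.93). With the start of every transcript of protein-coding genes held to the 2.5 kb limit, 2 peaks of the 5′ UTR class remained, a ratio to introns of 1.47 (0.178 to 5.31). Other exons came next, with 28 of 64 within 1 kb (43.8%), where 33.8% of the bases are that near and the ratio of near to far density was 1.53 (0.897 to 2.57). They were followed by coding exons with 16 of 84 (19.05%, where 20.6% of the bases are that near), and a single 3′ UTR peak of 90 (1.11%).

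**Figure D3:**
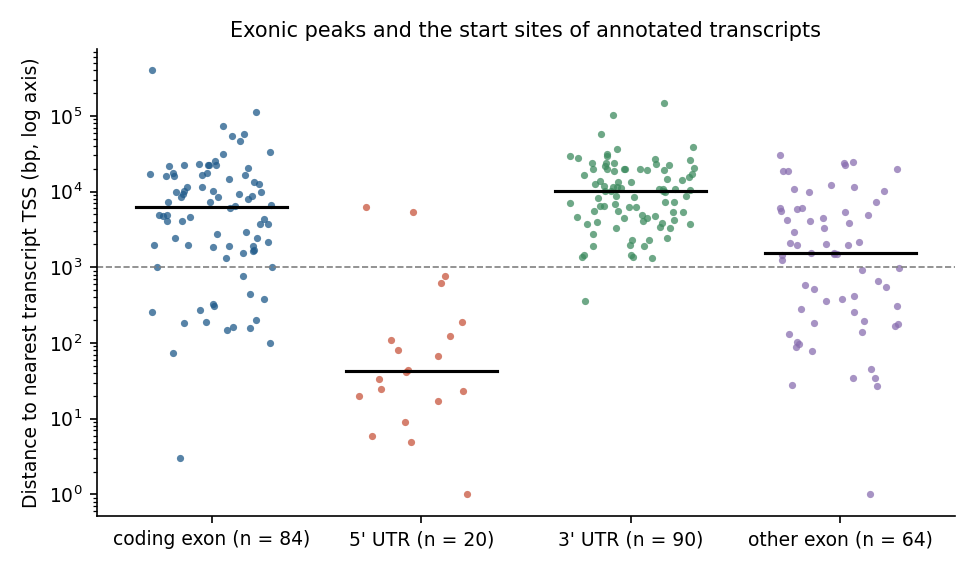
Distance from the middle of each exonic peak to the nearest TSS of any transcript of a protein-coding gene (y axis, bp, log scale) by exon class (x axis, with the number of peaks). Each point is 1 peak, black lines are medians and the dashed line marks 1 kb. The median is 42.5 bp for 5′ UTR peaks, 1534.5 bp for other exons, 6271 bp for coding exons and 10136.5 bp for 3′ UTRs.

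The widest 5′ UTR peak lay at Igf2, an imprinted growth factor gene (chr7:142655727-142656264, 538 bp), 23 bp from the start of transcript Igf2-209 and 10.8 kb from the start of the gene. The second, in Smim8 (chr4:34771710-34772186, 477 bp), was 1 of the 2 exceptions, with the nearest transcript start 6270 bp away. The third, 471 bp wide in Rbm47, an RNA-binding protein gene (chr5:66151357-66151827), lay 190 bp from the start of Rbm47-212. The 5′ UTR peak farthest from a gene TSS lay in Zfhx3, a zinc finger homeobox gene, 772.6 kb into the gene and 622 bp from the start of Zfhx3-201. Zfhx3 held 8 further Nanog peaks, the most of any gene with an exonic peak.

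Peaks in 3′ UTRs sat inside long terminal exons. All but 1 of the 90 lay in the last exon of their transcript and 84 lay wholly inside exons, in contrast to the coding peaks. Exonic stretches over 1 kb held 82 of the 90 peaks and 27.9 of the 31.0 Mb of 3′ UTR sequence. The place in long exons is thus that of 3′ UTR sequence at large. The UTRs had a median length of 2283 bases, and the middle of the peak lay a median of 968 bases after the end of the coding sequence (quartiles 523.5 and 1928). Of the 90, 61 were within 2.5 kb of the 3′ end of the gene. Across all genes, the last 2.5 kb before the 3′ end held 3.13 peaks per Mb (2.63 to 3.70) and the 2.5 kb after it 4.68 per Mb (4.06 to 5.36), so peak density was higher just past the gene end than just before it. The nearest protein-coding TSS belonged to another gene at 50 of the 90 3′ UTR peaks, since 40 (44.4%) had their host as the nearest, against 67.9% of coding-exon peaks.

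The widest 3′ UTR peak covered 633 bp of Cdc37l1 (chr19:29007948-29008580), which encodes a relative of the Hsp90 co-chaperone Cdc37. It lay wholly inside exon 5 of 5 of transcript Cdc37l1-205, 18.4 kb before the end of the gene, and was exonic in 1 of the 9 transcripts of that gene. St3gal2, a sialyltransferase gene, held one of 620 bp (chr8:110970174-110970793) centred 208 bases into a 3′ UTR of 2205 bases. Znrf1, a ubiquitin ligase gene, held one of 603 bp (chr8:111622129-111622731) centred 777 bases into a UTR of 2125 bases. The latter is an instance of a 3′ UTR peak closer to a neighbor, with a transcript of Ldhd starting 6157 bp away and its own TSS 86.3 kb away.

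**Figure D4:**
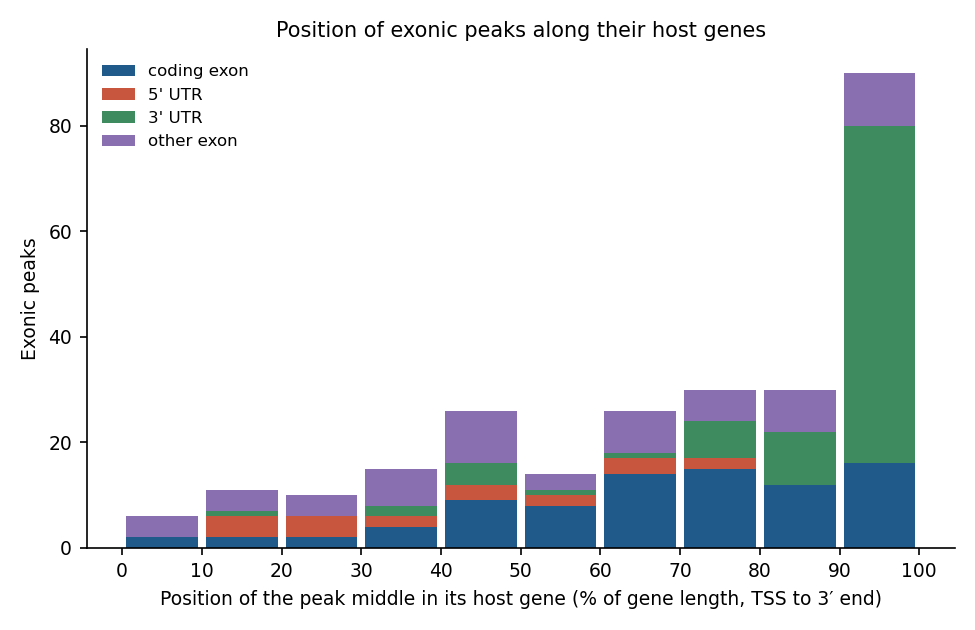
Number of exonic peaks (y axis) by the position of the peak middle in its host gene, from the TSS at 0% to the 3′ end at 100% (x axis, bins of 10%), stacked by exon class. The last bin holds 90 of the 258 peaks, mostly in 3′ UTRs, and the first holds 6.

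Along the host gene, 158 of the 258 exonic peaks lay past the 66.7% mark (61.2%) and 30 before the 33.3% mark (11.6%), a description that follows in part from the exclusion of 2.5 kb around TSSs and from where exons lie. Only 2 genes held more than 1 exonic peak, both in retained-intron transcripts. In Ints4, a subunit gene of the Integrator complex, peaks of 321 and 462 bp lay within the same 2711-bp exon. In Nudcd3, a NudC domain gene, peaks of 260 and 299 bp lay within the same 2637-bp exon. Both pairs share an exon and are not independent places. Of the 256 genes, 76 held a further Nanog peak of another kind.

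The 64 peaks in other exons resembled neither coding-exon nor 3′ UTR peaks in their place along the transcript. The exon was the first of its transcript at 29 of the 64 (45.3%) and the last at 42 (65.6%), and 11 of these transcripts had a single exon. The exons were long, with a median of 2058 bp, and 51 of the 64 peaks lay wholly inside exons. The middle of the peak was in a soft-masked repeat at 13 of the 64 (20.3%), against 3 of 84 coding-exon peaks and 13 of 90 3′ UTR peaks. The sequence of the classes differed in the same order. Outside such repeats lay 13.0 of 16.6 Mb of other exons, 28.6 of 30.0 Mb of coding exons and 25.0 of 31.0 Mb of 3′ UTRs. In the host gene 13 of the 64 lay before the 33.3% mark and 26 past the 66.7% mark, a more even spread than that of 3′ UTR peaks, 81 of 90 of which lay past the latter. None of the 64 peaks was exonic in every transcript of its gene, and over all classes 17 of the 258 were (6.59%), 10 of them in coding exons.

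The motif comparison asked which known pluripotency factor motifs lay under the exonic peaks, with windows of the same width 1 kb beyond each edge of the peak as control (510 windows, of which 36.3% were themselves centred in exons). Motifs were exact matches on both strands, except for the composite. The flanks had a median GC content of 45.8% against 50.8% in the peaks, and the part of this in the ratios was not tested beyond the comparison at like GC content given below. The Sox motif (CCATTGT or CCTTTGT) was found in 22.1% of exonic peaks against 9.80% of these windows, which gave a ratio of 2.25 (1.59 to 3.19). The Klf motif was found in 11.2% against 2.55% (4.41, 2.33 to 8.34). The composite was found in 4.65% against 1.37% (3.39, 1.35 to 8.50). The octamer was found in 5.43% against 2.35% (2.31, 1.08 to 4.91) and the Esrrb motif in 3.88% against 1.18% (3.29, 1.21 to 8.96). The Myc E-box was found in 9.30% against 3.92% (2.37, 1.34 to 4.21). The Tead motif GGAATG was found in 21.7% against 15.5% (1.40, 1.03 to 1.91). The motifs share letters in part, since the composite joins an octamer-like and a Sox-like stretch and the Nanog extended motif contains the core.

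Nanog's own motif did not follow this pattern. The core CCATTA was found in 11.2% of exonic peaks and 12.55% of flanks (ratio 0.896, 0.593 to 1.35), and in 19.8% of intronic peaks, so exonic peaks held it 0.568 times as often as intronic ones (0.401 to 0.806). Within 50 bp of the peak middle, exonic peaks had 0.384 copies per kb of the core, against 0.419 per kb between 500 and 1000 bp away (ratio 0.917, 0.427 to 1.75). In the intronic and intergenic peaks together the same ratio was 1.81 (1.66 to 1.97), an interval that overlaps the exonic one. The extended motif was found in 0.775% of exonic peaks and 2.42% of intronic peaks (ratio 0.320, 0.0793 to 1.29). AP-1 (TGACTCA or TGAGTCA) was found in 8.91% of exonic peaks and 6.86% of flanks, and CTCF in 0.775% and 0.588%, with intervals of the ratio that include 1.

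Several motifs were gathered at the middle of the exonic peaks, as they were in the intronic and intergenic peaks. The Esrrb motif was 6.93 times as dense within 50 bp of the middle as at 500 to 1000 bp (2.24 to 20.2), the Klf motif 6.09 times (3.05 to 11.8), the composite 4.95 times (1.09 to 18.5) and the Sox motif 4.81 times (3.12 to 7.30). In the same order, these ratios rest on 7, 16, 4 and 35 copies within 50 bp of the middle. In the intronic and intergenic peaks together the ratios were 3.95 (3.13 to 4.95), 4.997 (4.30 to 5.79), 11.6 (9.62 to 13.9) and 3.90 (3.64 to 4.17). Each of these intervals overlaps the exonic one, and a difference in gathering between the sets was not detectable. The middle base of an exonic peak is exonic by rule, whereas the sequence at 500 to 1000 bp was not chosen to be so. The nearest Sox copy lay at a median of 50.5 bp from the middle over the 56 Sox carriers outside chromosome 18, and the nearest Klf copy at 58 bp over 29. AP-1, whose ratio to the flanks had an interval that includes 1, was 3.14 times as dense (1.54 to 5.98). The Myc E-box was not gathered there (1.04, 0.270 to 2.89), although its share exceeded that of the flanks. For the octamer (2.97, 0.525 to 11.5) and the Tead motif (1.54, 0.907 to 2.47) the interval included 1.

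**Figure D5:**
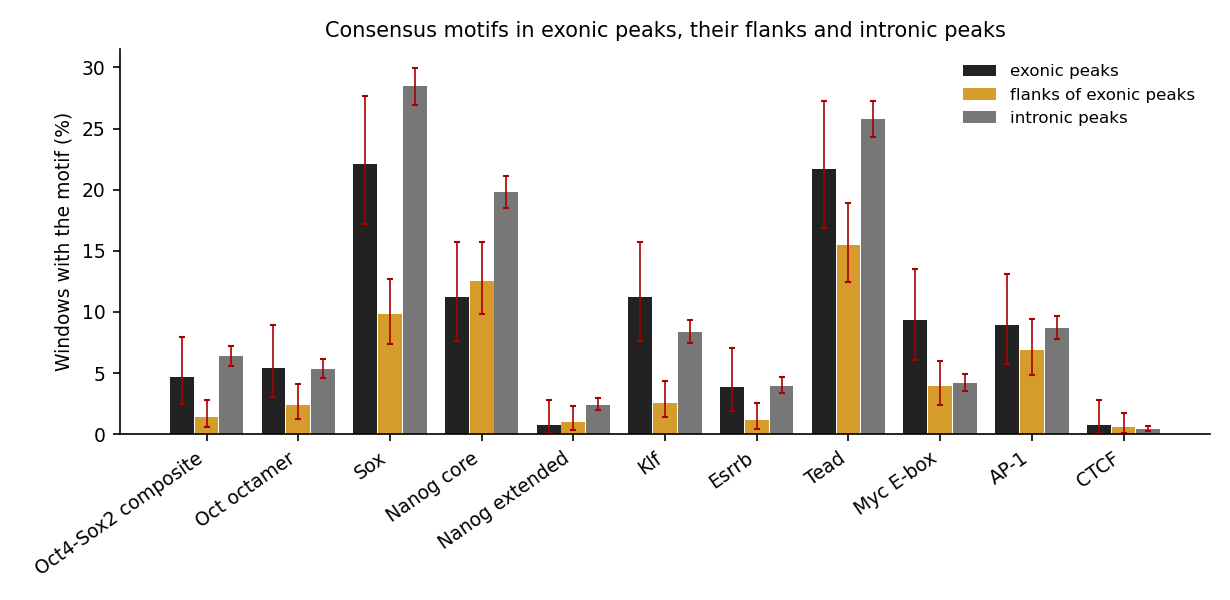
Share of windows with at least 1 copy of each consensus motif (y axis, %) in the 258 exonic peaks, their 510 flanking windows and the 3472 intronic peaks; bars are shares and error bars exact 95% Clopper-Pearson intervals. Sox, Klf and the composite are more frequent in exonic peaks than in flanks, and the Nanog core is at 11.2% in exonic peaks, 12.55% in flanks and 19.8% in intronic peaks.

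Against intronic peaks the exonic ones held fewer Sox motifs (22.1% against 28.5%, ratio 0.776, 0.614 to 0.982) and more E-boxes (9.30% against 4.18%, ratio 2.23, 1.47 to 3.37). Among peaks of 45 to 55% GC, an alternative added after the data were seen, these ratios were 0.897 (0.666 to 1.21) and 1.17 (0.579 to 2.35), and that of the Nanog core was 0.734 (0.484 to 1.11). None of these 3 differences had an interval apart from 1 at like GC content, where 145 exonic peaks were left. The composite, octamer, Esrrb and Klf motifs had ratios to intronic peaks of 0.731 (0.414 to 1.29), 1.01 (0.597 to 1.72), 0.975 (0.520 to 1.83) and 1.34 (0.936 to 1.92). A difference from intronic peaks was not detectable for them.

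The exon classes were also compared one by one. The E-box was found mainly in coding-exon peaks, in 14 of 84 (ratio to their flanks 3.48, 1.52 to 7.96), and in 2 of 90 3′ UTR peaks (0.568, 0.1205 to 2.68). AP-1 was found in 12 of 90 3′ UTR peaks (ratio to their flanks 2.39, 1.07 to 5.31) and in 4 of 84 coding-exon peaks (0.884, 0.280 to 2.79). The Klf motif exceeded the flanks in both classes, in 9 of 84 coding-exon peaks (3.58, 1.24 to 10.3) and 7 of 90 3′ UTR peaks (4.64, 1.23 to 17.5). It was found in 6 of 20 5′ UTR peaks (30.0%, 11.9 to 54.3). Those peaks had a median GC content of 60.2% and were not compared with their flanks. The Sox motif was found in 21 of 90 3′ UTR peaks (2.20, 1.25 to 3.87) and in 18 of 84 coding-exon peaks (1.63, 0.924 to 2.86). The Nanog core was found in 10 of 84 coding-exon, 12 of 90 3′ UTR and 7 of 64 other-exon peaks, and in none of the 20 5′ UTR peaks (upper limit 16.8%).

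None of the composite, octamer, Sox, Nanog core, Nanog extended, Klf and Esrrb motifs was present in 137 of the 258 exonic peaks (53.1%), against 45.4% of intronic peaks, a difference of 7.74 percentage points (1.43 to 14.0). At least 2 of these 7 motifs were present in 10.5% of exonic and 16.7% of intronic peaks. Neither comparison was matched for GC content or peak width, in which exonic and intronic peaks differed. Within the exonic peaks, the density of Sox and Klf copies did not differ detectably between the exonic bases and those outside exons. The Sox motif occurred 0.838 times per kb in the 70.4 kb of exonic bases and 0.771 times per kb in the 15.6 kb outside exons (ratio 1.09, 0.578 to 2.22). The Klf motif occurred 0.369 and 0.771 times per kb (0.479, 0.233 to 1.04). AP-1 copies were sparser in the exonic bases of the other-exon peaks (0.158 against 2.07 per kb, ratio 0.0764, 0.0112 to 0.452), which rests on 3 and 4 copies, and over all exonic peaks the ratio was 0.537 (0.212 to 1.53).

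The 12 peaks with an Oct4-Sox2 composite lay in Evi5l, Vps13c, Set, Dpm1, Farp1, Sgce, Utrn, Ssh2, Slc25a43, Adgrg6, Commd7 and Wnt5a. The copy nearest to the middle was within 100 bp of it in 9 of the 12, and in exonic sequence in 9. Farp1, a guanine nucleotide exchange factor gene, and Slc25a43, a mitochondrial carrier gene, carried it with 1 mismatch, and the other 10 with 2. In Wnt5a, which encodes a secreted Wnt ligand, the copy lay in the coding exon itself, 47 bp from the middle of a 235-bp peak (chr14:28513218-28513452).

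In Etv5 the extended Nanog motif lay nearly at the middle of the peak. Etv5, an ETS-family transcription factor gene, had a 343-bp peak over exon 7 (chr16:22411712-22412054), 27.8 kb from its TSS, and the copy printed above was 1 bp from its middle, in coding sequence. The same peak held an octamer 86 bp from the middle, in the intron beside the exon. Etv5 held 3 further Nanog peaks. Tbx3, a T-box factor gene of naive pluripotency, had a 296-bp coding-exon peak (chr5:119680879-119681174) 777 bp from the start of transcript Tbx3-205.

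The last comparison asked whether genes of named groups held exonic peaks more often than protein-coding genes at large. Of 19585 protein-coding genes with exon sequence over 2.5 kb from any TSS, 256 held an exonic peak (1.31%). The share rose with the amount of such sequence, from 0.265% in the quartile of genes with the least to 2.90% in the quartile with the most, so lists of genes with long exons start from a higher share. Pluripotency regulators held one in 2 of 48 genes, Etv5 and Tbx3 (4.17%, 0.509 to 14.3). Chromatin regulators held one in 4 of 108 (3.70%, 1.02 to 9.21). These were Trrap, a scaffold of histone acetyltransferase complexes, the methyltransferase genes Nsd1 and Ehmt2, and the H3K4 demethylase gene Kdm5b, and all but Nsd1 held the peak in a retained-intron exon. The chromatin list had a median of 7988.5 bp of such exon sequence per gene, against 3139 bp for all genes, and its density was 4.16 peaks per Mb of exon against 3.21.

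Signalling pathway genes held an exonic peak in 3 of 112 (2.68%, 0.556 to 7.63), in the Notch receptor gene Notch1, in Etv5 and in Wnt5a. Mesenchymal and epithelial genes held one in 2 of 50 (4.00%, 0.488 to 13.7). These were Zeb2, a repressor of epithelial genes, in an exon of a processed transcript, and Grhl2, an activator of epithelial genes, in a coding exon. Homeobox, Sox and Fox genes held one in 3 of 188 (1.60%, 0.330 to 4.59), among them the forkhead factor gene Foxp4 and Zeb2. Zinc finger genes held one in 7 of 549 (1.28%, 0.514 to 2.61), the widest 6 being in Zfp866, Zbtb40, Zfp933, Zfp729a, Zbtb7b and Zfhx3. Of these, 4 lay in 3′ UTRs. Members of this family share repeated finger sequence, and reads from such copies can be placed with less certainty. How surely the reads of these peaks were placed was not tested. The Zfp729a peak lay wholly in soft-masked repeat sequence (100% of its bases). Solute carrier and ion channel genes held one in 13 of 638 (2.04%, 1.09 to 3.46), the widest 6 being in Slc35f2, Slc30a2, Atp6v0a4, Slc37a1, Kcnab3 and Slc13a4.

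Collagen, laminin and cadherin genes, which encode matrix and adhesion proteins, held none in 194 (upper limit of the exact interval 1.88%). An intronic peak lay in 26 of the 194 (13.4%), close to the 12.1% of the 19585 protein-coding genes. All of the 8 lists had an interval that contained the 1.31% of all genes, so no list stood apart from it at these counts.

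A difference between exonic and intronic peaks in how often they had a neighbor was not detectable. Another Nanog peak lay within 5 kb of 12.0% of them, against 14.0% of intronic peaks (difference -1.98 percentage points, -5.60 to 2.69), and within 25 kb of 33.3% against 37.0% (-3.68 points, -9.38 to 2.49). At the distance often used to join enhancers into clusters, midway between 0 and 25 kb, 55 of the 258 had a neighbor (21.3%, against 24.6% of intronic peaks, difference -3.25 points, -8.04 to 2.33). Their middle lay in a soft-masked repeat at 11.2%, against 17.1% of intronic peaks (difference -5.84 points, -9.38 to -1.24). The sequence itself differed in the same direction. Outside such repeats lay 68.1 of 79.4 Mb of exonic and 638.1 of 899.4 Mb of intronic sequence. A noncoding gene started within 1 kb of 7 of the 258 (2.71%), against 1.27% of intronic and 2.25% of intergenic peaks. The difference from intronic peaks was 1.45 points (-0.0117 to 4.24), an interval that includes 0. On the X chromosome there were 4 exonic peaks, with a density of 0.474 times that of the autosomes (0.128 to 1.23). At this count a difference from the autosomes was not detectable. Widths were close to those of other peaks, with a median of 300.5 bp against 321 bp for intronic peaks, and ranged from 235 to 709 bp.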

How the data were processed

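Nanog ChIP-seq was performed in Bruce-4 mouse ESCs with 1 immunoprecipitated and 1 input sample. Per the labels and the study's methods, FastQC served for quality control and Bowtie2 for alignment to mm10. MACS2 called the peaks on reads that had passed filters on quality, duplication and excluded regions, for which bedtools and SAMtools were used. The authors deposited 8860 lines of chromosome, start and end in base pairs, with no score, and the threshold of the call is not given in the sources used here. The 123 repeated lines were dropped, and each distinct interval was represented by its middle base. A call threshold sets which weak sites are listed, and reads that map to several places bear on peaks in repeats and gene families.

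Annotation was read at the middle base in the order coding exon, 5′ UTR, 3′ UTR, other exon, intron and intergenic, from GENCODE vM21 on GRCm38, with soft-masking as in the RefSeq copy of that assembly. Densities were peak middles per Mb of non-N sequence of the class. GC bins used a window of 319 bp, the median peak width. Shares carry exact Clopper-Pearson intervals, ratios of densities exact conditional binomial intervals, ratios of motif shares intervals on the log scale, and differences of shares Newcombe intervals, all at 95%. No p-value was computed, because peaks of 1 library are not replicates. Class assignment, density ratios and the motif search were tested on simulated data. Python 3.11.15, numpy 2.4.6, scipy 1.17.1 and matplotlib 3.10.9 were used.

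The exonic peaks, motifs and gene lists were chosen with earlier results of these data known. Named genes were those with 2 or more exonic peaks, list genes with an exonic peak (at most 6 per list, widest first), the 3 widest peaks of the coding exon, 5′ UTR and 3′ UTR classes, and peaks with a composite or extended Nanog motif. Sequences were shown for up to 3 peaks per motif, widest first. Neither sequences nor distances of the nearest copy from the middle were taken from chromosome 18. Motif shares and densities around the middle used all exonic peaks. Other promoter distances, TSS definitions, peak and exon definitions, masking, peak widths, windows and controls were tried as alternatives. A gene that the naming rule would select is not reported here by name. Input reads were not analysed here.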

Additional observations from a re-analysis of the deposited data

How the results depend on the processing

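The number of exonic peaks was 258. It was 159 with the TSS of every transcript of protein-coding genes held to the 2.5 kb limit, and 116 with peaks at or above the median width of 319 bp, the last following from fewer peaks. The 6 other definitions gave between 190 and 283. Of the density ratios, that of 3′ UTRs reached 0.809 (0.643 to 1.01) at a promoter distance of 5 kb, where the interval includes 1, and all other settings kept both ratios below 1 with the interval apart from it. With the other distal peaks as control in place of flanks, the ratio of motif shares turned to 0.681 (0.390 to 1.19) for the composite and 0.927 (0.553 to 1.55) for the octamer. It turned to 0.747 (0.592 to 0.941) for Sox and 0.826 (0.653 to 1.04) for Tead. The ratio fell to 1.09 (0.588 to 2.03) for Esrrb, and was 0.604 (0.427 to 0.854) for the Nanog core. For Klf it was 1.45 (1.02 to 2.06) and for the E-box 2.53 (1.70 to 3.76), both above 1 with the interval apart from it. With intronic peaks of 45 to 55% GC as control, added after the data were seen, it was 0.972 for the composite, 0.897 for Sox and 0.943 for Tead, and 1.52 for the octamer, 1.07 for Klf, 1.13 for Esrrb and 1.17 for the E-box, each with an interval that includes 1. Flanks 2 kb beyond the edge gave 1.10 for the Nanog core and 2.47 for Esrrb (0.987 to 6.18), and raised the composite from 3.39 to 7.91 (12 peaks against 3 windows) and the octamer from 2.31 to 6.92. The 200 bp around the middle gave 1.41 for Tead (0.940 to 2.12), 7.91 for the composite and 5.93 for both the octamer and Esrrb. These alternatives change the control sequence, and the cause of each change was not tested. CTCF had no ratio for 2 of the alternatives, for want of copies. Restricting to wide peaks left 14 of the 32 list genes, with 0.587% of all genes as background. The other shares and the GC difference kept their direction at every limit tried. No paired analysis was possible because all values come from a single library. Since the list gives no strength, a stricter threshold could not be tried, and weak sites cannot be told from unbound ones.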
